A study of Homo sapiens with 4 samples.

Results

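First-intron FOXK2 peaks outside repeats were 4322 of the 39752 peaks called in OVCAR5 cells: 1391 of 12471 in replicate 1 (11.2%, Wilson 95% interval 10.6% to 11.7%) and 2931 of 27281 in replicate 2 (10.7%, 10.4% to 11.1%). A peak was included when its HOMER annotation named the first intron of a RefSeq transcript and its detailed annotation also named an intron, which leaves out peaks whose centre HOMER placed in a repeat or a CpG island. OVCAR5 is an established ovarian cancer cell line, labelled here as high grade serous. Both replicates are biological duplicates of 1 condition, cultured cells with no treatment or genetic change named in the labels, precipitated with an antibody to FOXK2. The input libraries were not analysed here, so each peak is given by its call, its position and its score, and no condition was compared with another. Intervals cover counting error only.

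FOXK2 is a forkhead transcription factor, a protein whose winged-helix domain contacts DNA through a TGTTTAC core (GTAAACA on the other strand), and it is known to work with SIN3A and BAP1 corepressor complexes. First introns lie just downstream of the promoter, tend to be the longest introns of a gene and often hold enhancers. AP-1, a dimer of JUN, FOS and related leucine-zipper proteins, binds TGACTCA at many enhancers of epithelial cells. First-intron peaks therefore lie between the promoter and the more remote peaks of the same factor. They were compared with peaks in later introns and in intergenic sequence, outside repeats and CpG islands, and with peaks at promoters. Promoter peaks were taken by annotation alone, with those in repeats or CpG islands kept.

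The sequences below are shown because the results turn on which site a first-intron peak holds. Each is 121 bases of the hg38 plus strand, centred on the stretch that the peaks of both replicates shared. At 4 sites of high score the capitals mark forkhead heptamers, and at MAFK also an AP-1 heptamer 5 bases further on.
SLC8A1 (chr2:40472002-40472122): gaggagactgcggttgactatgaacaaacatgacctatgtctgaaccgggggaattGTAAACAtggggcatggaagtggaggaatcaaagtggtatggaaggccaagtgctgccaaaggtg
TRIM34 (chr11:5621328-5621448): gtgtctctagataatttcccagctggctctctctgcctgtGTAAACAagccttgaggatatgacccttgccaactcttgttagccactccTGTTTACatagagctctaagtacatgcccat
SERTAD2 (chr2:64646388-64646508): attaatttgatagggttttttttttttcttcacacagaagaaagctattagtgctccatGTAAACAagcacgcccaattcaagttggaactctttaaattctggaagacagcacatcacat
MAFK (chr7:1537300-1537420): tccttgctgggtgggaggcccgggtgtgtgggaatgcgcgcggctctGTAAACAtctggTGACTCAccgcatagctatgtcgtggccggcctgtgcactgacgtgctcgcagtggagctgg
At TENM2, a peak of high score, and ITGA6, a peak of moderate score, the window held AP-1 heptamers, in capitals, and no exact forkhead heptamer.
TENM2 (chr5:167294989-167295109): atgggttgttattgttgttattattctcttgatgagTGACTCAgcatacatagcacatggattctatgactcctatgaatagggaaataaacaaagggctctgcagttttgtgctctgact
ITGA6 (chr2:172442140-172442260): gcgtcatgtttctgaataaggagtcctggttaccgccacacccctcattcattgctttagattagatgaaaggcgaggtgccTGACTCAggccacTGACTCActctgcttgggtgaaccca
At HERPUD1, ATG2A, POU2F1 and PPP1R15A neither exact heptamer was in the window, and the capitals mark heptamers 1 base away from TGTTTAC, on either strand, of the 7 kinds that were more frequent in first-intron peaks in both replicates, as described below.
HERPUD1 (chr16:56933030-56933150): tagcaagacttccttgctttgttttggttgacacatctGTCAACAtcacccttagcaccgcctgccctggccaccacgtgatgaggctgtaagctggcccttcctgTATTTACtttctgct
ATG2A (chr11:64916354-64916474): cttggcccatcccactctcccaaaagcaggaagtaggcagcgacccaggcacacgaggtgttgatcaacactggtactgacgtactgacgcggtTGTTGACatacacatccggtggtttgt
POU2F1 (chr1:167222365-167222485): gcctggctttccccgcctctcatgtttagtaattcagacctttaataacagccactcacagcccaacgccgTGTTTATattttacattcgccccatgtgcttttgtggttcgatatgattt
PPP1R15A (chr19:48873022-48873142): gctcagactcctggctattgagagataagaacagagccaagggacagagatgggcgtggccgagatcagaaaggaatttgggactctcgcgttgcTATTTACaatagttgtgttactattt

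The strongest first-intron peaks of each list overlapped a peak of the other list. First-intron peaks without such a partner scored at most 11.9 in replicate 1 and 31.1 in replicate 2. The sites named here were chosen among peaks that overlapped between the lists. The peak score is the number of tags scaled to the library and was ranked only within its own list. At SLC8A1, the sodium-calcium exchanger, the peak scored 35.3 in replicate 1 (rank 55 of 12471) and 58.9 in replicate 2 (rank 95 of 27281). These were the highest scores of any first-intron peak in either list. At TRIM34, a tripartite motif protein, the scores were 34 (rank 64) and 52.5 (rank 126), at 1444 bp and 1459 bp from the start site. Its window held 2 forkhead heptamers in opposite orientations, while SLC8A1 held 1. At SERTAD2, a transcriptional co-regulator with a single intron, the scores were 27 (rank 121) and 55.3 (rank 111). At PKP4-AS1, an antisense noncoding gene, they were 30 (rank 85) and 58.3 (rank 98). CDCA7L, SYBU, ALDH3B1 and SPINT1 completed the 12 sites of best mean percentile together with MAFK, HERPUD1, ATG2A and POU2F1. Of these 12 sites, 9 held TGTTTAC within 100 bp of the centre in both replicates.

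MAFK, a small MAF protein that dimerizes with other leucine-zipper factors, carried both heptamers. Its peak scored 27.9 in replicate 1 (rank 111) and 49.4 in replicate 2 (rank 151). The nearest start site, at 2480 bp and 2457 bp, belonged to LOC100128653 and not to MAFK. Host and nearest gene differed in this way for 13.7% of first-intron peaks in replicate 1 and 14.8% in replicate 2, against 41.7% and 42.8% of later-intron peaks.

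Strong peaks without either exact heptamer lay at genes of varied function. HERPUD1, an endoplasmic reticulum membrane protein of protein degradation that the unfolded protein response (UPR) induces, had a peak of score 24 (rank 174) in replicate 1 and 53.8 (rank 120) in replicate 2. It lay 1000 bp and 1012 bp from the start site. ATG2A, a lipid transfer protein of autophagosome formation, scored 25.3 (rank 146) and 52.8 (rank 125). POU2F1, the octamer-binding factor OCT1, scored 23.6 (rank 180) and 47.7 (rank 164). AGO2, the slicing protein of RNA interference, scored 22.4 and 41.8 at 43906 bp and 43955 bp from the start site. PPP1CB, a catalytic subunit of protein phosphatase 1, scored 22.4 and 38.5. The ranks of these 5 peaks lay between 146 and 200 in the first list and between 120 and 284 in the second, and 4 of them lay within 2000 bp of a start site in both replicates.

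The strongest shared peaks with TGACTCA and no TGTTTAC were at TENM2, NDUFV2, EML4, CARINH and ATP6V0D2. TENM2, a teneurin of cell adhesion, scored 22.3 (rank 209) and 54.1 (rank 119), with 2 AP-1 sites within 100 bp of the centre. NDUFV2, a subunit of respiratory complex I, scored 20.6 (rank 255) and 35.1 (rank 368). EML4, a microtubule-binding protein, scored 19.6 (rank 299) and 25.7 (rank 812). The ranks of the 5 lay between 209 and 416 in the first list and between 119 and 812 in the second.

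Recovery between the lists was about that of other intron peaks. Of the 1391 peaks of replicate 1, 1040 overlapped a peak of replicate 2 by at least 1 bp (74.8%, 72.4% to 77.0%), and of the 2931 peaks of replicate 2, 1014 overlapped a peak of replicate 1 (34.6%, 32.9% to 36.3%). The lists differ in length, and with the longer list limited to as many of its best peaks as the shorter one holds, both shares were 59.4%. Later introns gave 73.7% and 31.5% with the full lists. The difference was 1.11 percentage points in replicate 1 (Fisher's exact test, two-sided, p = 0.479, adjusted 0.639 over the 12 tests of recovery and rank) and 3.06 points in replicate 2 (p = 0.00514, adjusted 0.0123). The second difference was not kept at 5000 bp or more from the nearest TSS (1.95 points, Fisher's exact p = 0.12) or in lists of equal length (1.01 points, p = 0.575). Promoter peaks were recovered more often, at 79.1% and 43.9%, a first-intron difference of -4.38 and -9.34 points (Fisher's exact adjusted p = 0.00461 and 1.9e-15).
In score, 8.99% of first-intron peaks of replicate 1 and 10.1% of replicate 2 were in the best 10% of their list. The difference to later introns was -0.402 points in replicate 1 (Fisher's exact adjusted p = 0.787) and 1.75 points in replicate 2 (adjusted p = 0.0189), and the second was not kept in the best 5% (0.707 points, unadjusted p = 0.129). The difference to promoters was -7.03 and -7.08 points (Fisher's exact adjusted p = 7.4e-10 and 2.1e-17).

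Both recovered sets shared 979 pairs in which each peak was a first-intron peak, so 94.1% of the recovered peaks of replicate 1 and 96.5% of those of replicate 2 had a partner of the same class. None had a partner annotated to a later intron outside repeats, and 8 and 2 had one at a promoter. Over the 979 pairs the scores of the replicates had a Spearman's rho of 0.837, given as a description across peaks, and the centres lay a median of 28 bp apart. First-intron peaks lay in the middle of their lists, at a median percentile of 49.1 and 51.4. The median score was 5.85 in replicate 1 and 7.44 in replicate 2, or 31 and 50 of the steps in which scores are counted, against 16 and 21 steps for the weakest peak of each list. Recovery followed the score: in the lowest 10% of the list 43.1% of first-intron peaks of replicate 1 and 1.71% of replicate 2 had a partner, and in the best 10% 99.2% and 89.2% did.

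**Figure D1:**
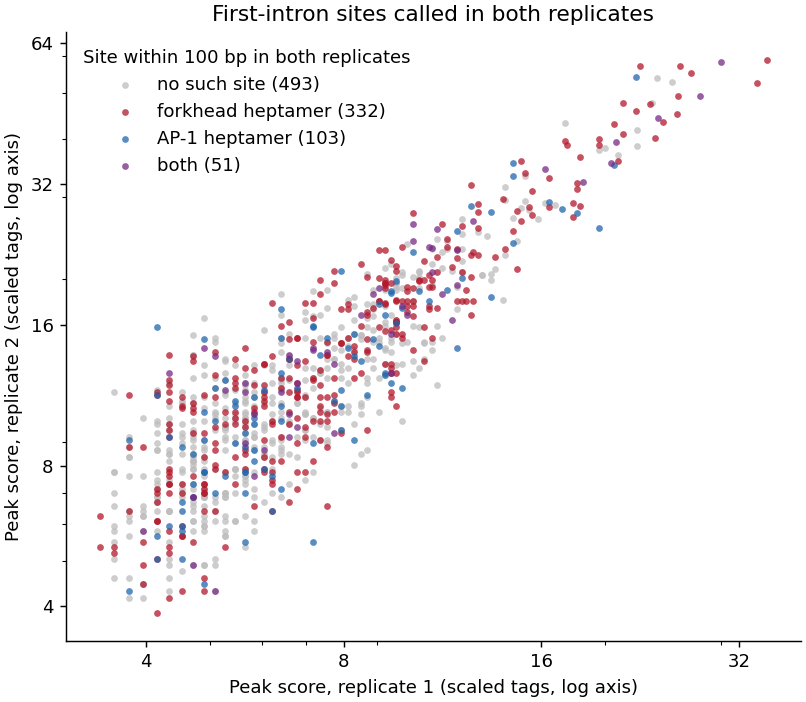
Peak score in replicate 1 (horizontal, log axis) against replicate 2 (vertical, log axis) for the 979 pairs of overlapping first-intron peaks, coloured by the exact heptamers found within 100 bp of the centre in both replicates. Grey points (493 pairs with no such site) reach 25.3 in replicate 1 and 53.8 in replicate 2, and the highest score in each list, 35.3 and 58.9, belongs to a pair with the forkhead heptamer.

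The forkhead heptamer was the leading site of first-intron peaks, at a share close to that of other remote peaks and well above that of promoters. TGTTTAC lay within 100 bp of the centre in 35.6% of the peaks of replicate 1 (495 of 1391, 33.1% to 38.1%) and 32.1% of replicate 2 (942 of 2931, 30.5% to 33.9%). Equally long windows, centred 2000 bp upstream and downstream, held it in 2.48% and 3.21%, so the peaks were 14.3 and 10.0 times above their surroundings. Promoter peaks held it in 14.4% and 10.9%, which is 21.2 points below first introns in both replicates (Fisher's exact adjusted p = 1.3e-51 and 1.4e-114, over 54 motif tests). Later introns held it in 33.9% and 29.8%. The differences of 1.72 and 2.33 points did not pass the test (Fisher's exact adjusted p = 0.418 and 0.0607).

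AP-1 sites were fewer in first introns than in later introns, in both lists. TGACTCA was found in 17.0% of first-intron peaks of replicate 1 (15.1% to 19.0%) and 18.1% of replicate 2 (16.8% to 19.6%), against 3.41% and 3.28% of the windows 2000 bp away. Later introns held it in 22.8% and 22.6%. The difference of first to later introns was thus -5.87 and -4.48 points (Fisher's exact adjusted p = 6.8e-05 and 5.9e-06), and that to intergenic peaks -5.61 and -2.92 points (adjusted p = 6.6e-05 and 0.00286). Promoter peaks held it in 3.88% and 3.36%, near their own surroundings of 2.60% and 2.75%. Many loci are in both lists, so the replicates are not independent evidence about loci.

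**Figure D2:**
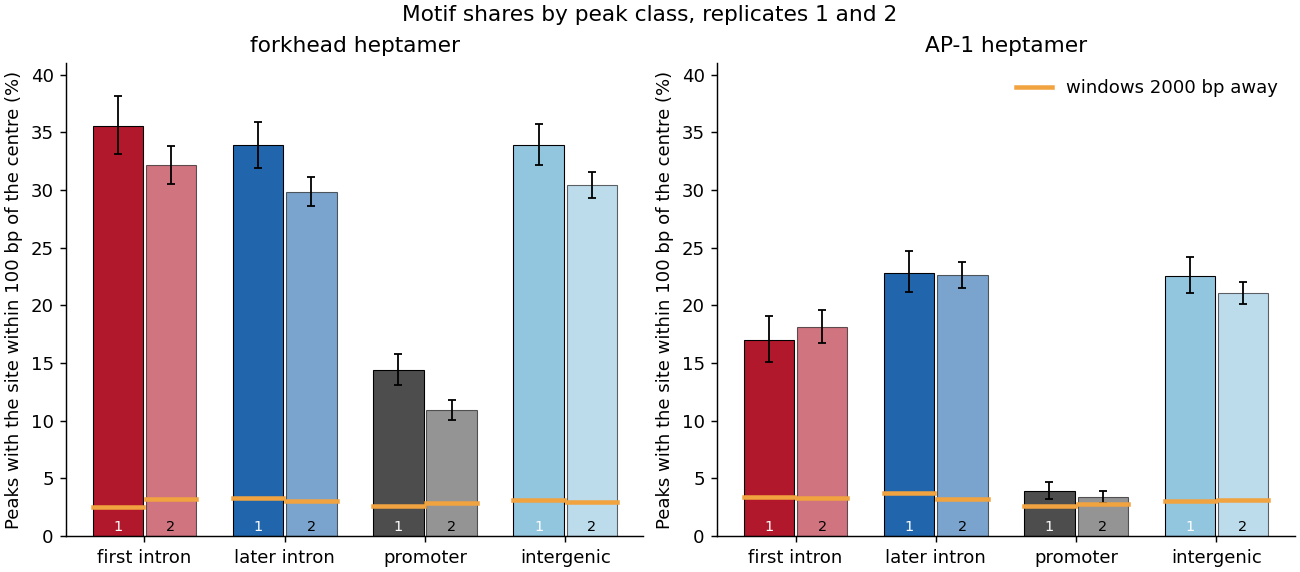
Share of peaks with the forkhead heptamer (left) or the AP-1 heptamer (right) within 100 bp of the centre, for 4 peak classes, with replicates 1 and 2 numbered in the bars, Wilson 95% intervals as error bars and the share in windows 2000 bp away as orange lines. First introns reach 35.6% and 32.1% for the forkhead site, beside later introns, and 17.0% and 18.1% for the AP-1 site, between later introns and promoters.

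The AP-1 share of first-intron peaks was lowest near the TSS. It was 8.51% of 141 peaks under 1 kb in replicate 1 and 10.2% of 265 in replicate 2. From 1 to 5 kb it was 13.8% and 17.0%, from 5 to 20 kb 18.0% and 18.9%, and from 20 to 50 kb 22.5% and 19.7%. Farther out it did not rise in a steady way, with 17.1% and 21.5% from 50 to 100 kb and 21.0% and 19.3% over 100 kb. GC content moved the other way, from a mean of 52.7% and 51.8% under 1 kb to 45.3% and 44.7% from 20 to 50 kb, and its part in the result was not tested. Later introns had few peaks near a start site, with 11 and 25 under 1 kb, of which 0 and 1 held TGACTCA, and from 1 to 5 kb the share was 21.5% and 22.8%. Among peaks 5000 bp or more from the nearest TSS the AP-1 difference to later introns was -3.52 points in replicate 1 (19.6% against 23.1%, Fisher's exact unadjusted p = 0.0365) and -3.13 points in replicate 2 (19.6% against 22.7%, p = 0.0047). The difference was not the same in each distance class. From 5 to 20 kb later introns held it in 27.8% and 23.1%, above first introns in both replicates. From 20 to 50 kb they held it in 22.3% and 24.7%, close to first introns in replicate 1, and from 50 to 100 kb in 19.8% and 20.4%, below first introns in replicate 2. Over 100 kb they held it in 22.7% and 21.8%. Of the peaks under 1 kb, 22.0% and 29.4% held the forkhead heptamer, against 41.1% and 35.2% from 1 to 5 kb.

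The position of the sites around the centre differed between the heptamers. In the 20-bp bin at the centre there were 8.48 forkhead sites per 100 peaks in replicate 1 and 9.55 in replicate 2, and in the bin at -80 bp 0.935 and 0.921. The median distance of a forkhead site from the centre was 21 bp and 18 bp. AP-1 sites were spread more widely, with 3.02 and 1.81 per 100 peaks at the centre and 1.58 and 1.36 at -80 bp. Of the 495 and 942 first-intron peaks with the forkhead heptamer, 27 and 51 held 2 or more.

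**Figure D3:**
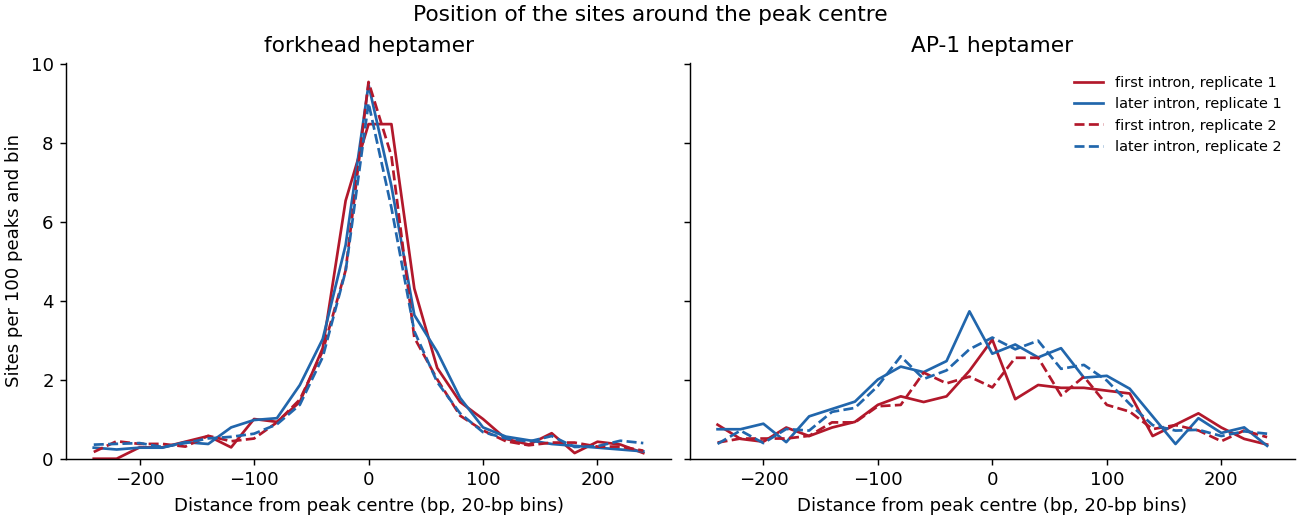
Number of forkhead (left) and AP-1 (right) heptamers per 100 peaks in 20-bp bins, against the distance from the peak centre in bp, for first introns (red) and later introns (blue) in replicate 1 (solid) and 2 (dashed). The forkhead curves of both intron classes have a narrow maximum at the centre, at 8.48 and 9.55 in first introns, and the AP-1 curves are broad and low.

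Few first-intron peaks held both heptamers. They occurred together in 67 peaks of replicate 1 and 113 of replicate 2, TGTTTAC alone in 428 and 829, TGACTCA alone in 169 and 418, and neither in 727 (52.3%) and 1571 (53.6%). AP-1 sites were in 13.5% of the peaks with the forkhead heptamer and 18.9% of those without it in replicate 1 (odds ratio 0.673, Fisher's exact p = 0.0112), and in 12% and 21.0% in replicate 2 (odds ratio 0.512, p = 1.6e-09). Later introns showed the same direction, with odds ratios of 0.610 and 0.519. First-intron peaks with a partner in the other list held TGTTTAC more often than those without, at 39.2% against 24.8% in replicate 1 (Fisher's exact p = 8.7e-07) and 40.4% against 27.8% in replicate 2 (p = 4.5e-12). For TGACTCA the shares were 17.3% against 16.0% and 18.9% against 17.7% (Fisher's exact p = 0.622 and 0.42). The peaks with a partner also scored higher, at a median percentile of 59.7 against 26.7 in replicate 1 and 77.9 against 38.5 in replicate 2, and the part of the score in this difference was not tested.

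Many of the peaks without the exact heptamer held a sequence 1 base away from it. Each of the 21 such heptamers was counted in the 896 and 1989 first-intron peaks without TGTTTAC and in windows 2000 bp away without it, on both strands. A change is written as the base of TGTTTAC, its position from the 5′ end and the base found. After adjustment over the 42 tests, 7 variants were more frequent in the peaks in replicate 1 and 11 in replicate 2, and none was less frequent. The 7 that passed in both were C7T, T5G, G2A, T4G, A6G, A6T and A6C. C7T (TGTTTAT) was the most frequent, in 20.9% of the peaks of replicate 1 against 5.16% of the windows (Fisher's exact adjusted p = 2.0e-38) and in 21.1% against 4.79% in replicate 2 (2.9e-90). T5G (TGTTGAC) had the highest ratio, with 10.8% against 1.73% in replicate 1 (3.6e-27) and 11.1% against 1.87% in replicate 2 (6.5e-57). G2A (TATTTAC) was found in 10.5% against 3.83% and 11.7% against 4.27%. At least 1 of the 7 was present in 530 (59.2%) of the 896 peaks and 1201 (60.4%) of the 1989, against 22.6% and 24.2% of the windows, a description only, since the 7 were chosen for being more frequent in these peaks. A change of position 1 did not pass in either replicate. The HERPUD1 window printed above held T5G and G2A, ATG2A held T5G, POU2F1 held C7T and PPP1R15A held G2A. POU2F1 also held C7G and ITGA6 held T3G, neither of which passed in both replicates. TENM2, printed like ITGA6 as an AP-1 site, held C7T. These variants at POU2F1, ITGA6 and TENM2 are not in capitals.

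The base after the heptamer was A (TGTTTACA) at 45.1% of 523 sites in first-intron peaks of replicate 1 and 45.3% of 991 in replicate 2, against 35.7% of 70 and 34.0% of 191 sites in the windows 2000 bp away. G followed at 3.82% and 3.83%. The heptamer had no clear orientation to the gene beyond its surroundings: the TGTTTAC strand was the transcribed sense strand at 54.4% of sites in replicate 1 and 56.2% in replicate 2, against 57.6% and 56.9% of sites in the windows (Fisher's exact p = 0.678 and 0.929).

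Other sites separated first introns from promoters more than from later introns. The ETS site CCGGAAGT was in 0.647% and 0.478% of first-intron peaks against 9.56% and 9.51% of promoter peaks (Fisher's exact adjusted p = 4.5e-36 and 3.6e-77). The SP and KLF box GGGCGGG was in 4.03% and 3.92%, against 35.0% and 36.9% of promoter peaks (Fisher's exact adjusted p = 7.1e-128 and 3.8e-284) and 2.62% and 2.93% of later-intron peaks (adjusted p = 0.0487 and 0.043). Promoter peaks in CpG islands were kept, while first-intron peaks there were left out by the class rule. Median GC content was 45.3% and 44.8% in first-intron peaks and 63.2% and 63.7% in promoter peaks. The part of this rule in the ETS and the SP and KLF differences to promoters was not tested. The E-box CACGTG was in 5.39% and 4.71%, against 3.74% and 3.71% of later-intron peaks (Fisher's exact adjusted p = 0.0487 and 0.0639). The TEAD site GGAATG was in 17.7% and 18.2% of first-intron peaks, against 10.2% and 10.3% of the windows 2000 bp away and 8.90% and 7.98% of promoter peaks. The RUNX site TGTGGTT was in 7.91% and 8.60%, against 3.52% and 3.14% of the windows. Neither TEAD nor RUNX sites differed detectably from later introns (Fisher's exact adjusted p from 0.496 to 1).

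A count of every heptamer gave few differences between first and later introns that passed adjustment. In replicate 1, 0 of 8179 heptamers passed Fisher's exact test with Benjamini-Hochberg adjustment in either direction (0%), while 309 were more and 225 less frequent in first introns at an unadjusted p under 0.05. In replicate 2, 1 of 8192 was more frequent (0.0122%) and 3 were less frequent (0.0366%). TGACTCA was among the less frequent (18.1% against 22.6%, adjusted p = 0.00763 by Fisher's exact test), as was ATGAGTC, which overlaps it (7.47% against 10.7%, the same adjusted p). AATTGTC was found in 0.989% against 2.32% (0.0327), and ACCCCGG in 1.33% against 0.436% (0.0458). None of these passed in both replicates. In replicate 1 TGACTCA did not pass over the 8179 heptamers, although it passed among the 54 motif tests (Fisher's exact adjusted p = 6.8e-05).

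First introns held more peaks per base than later introns. Over the canonical transcripts of GENCODE protein-coding genes there were 4.02 first-intron peaks per Mb of first intron in replicate 1 and 8.22 in replicate 2, against 2.21 and 5.20 later-intron peaks per Mb of later intron, a ratio of 1.82 and 1.58. First introns made up 24.2% of intron length and held 36.7% and 33.5% of these peaks. Only peaks in a canonical intron of their own class were counted. These were 75.2% and 72.9% of first-intron peaks and 84.2% and 84.1% of later-intron peaks. In first introns the density fell with distance from the nearest transcript start. In later introns it rose between 1 to 5 kb (2.26 and 5.05 per Mb) and 5 to 20 kb (2.34 and 5.51 per Mb). From 0.1 to 1 kb it was 7.55 and 14.5 per Mb in first introns, 2.99 and 2.26 times that of later introns at the same distance. From 5 to 20 kb it was 3.26 and 7.32 per Mb, 1.39 and 1.33 times that of later introns. Over 100 kb, where 15 and 24 first-intron peaks remained, the ratio was 1.62 and 1.05. At 5000 bp or more from any transcript start the ratio over all distances was 1.48 and 1.36.

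Genes with a long first intron held most of these peaks. Of 4656 protein-coding genes with a canonical first intron under 1 kb, 7 (0.150%) had a first-intron peak in both replicates. The share was 3.48% of 4679 genes from 5 to 20 kb, 10.1% of 2074 genes from 20 to 50 kb and 24.2% of 472 genes over 100 kb. Counted per Mb of first intron, these were 3.29 genes under 1 kb, 3.34 from 5 to 20 kb, 3.19 from 20 to 50 kb and 1.32 over 100 kb. Over the 1141 and 2352 peaks that lay in a canonical first intron, that intron had a median length of 38163 bp and 40597 bp. An intron with several peaks counts several times in these medians. Over 18857 canonical first introns, each counted once, the median was 3639 bp. Within the first introns that held a peak, the 20% of the length nearest the start held 27.5% and 27.9% of the peaks, and the last 20% 15.1% and 17.7%. For 8.56% and 8.87% of the first-intron peaks the position was a later intron of the host gene's canonical transcript, so there the first intron was that of another RefSeq transcript.

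**Figure D4:**
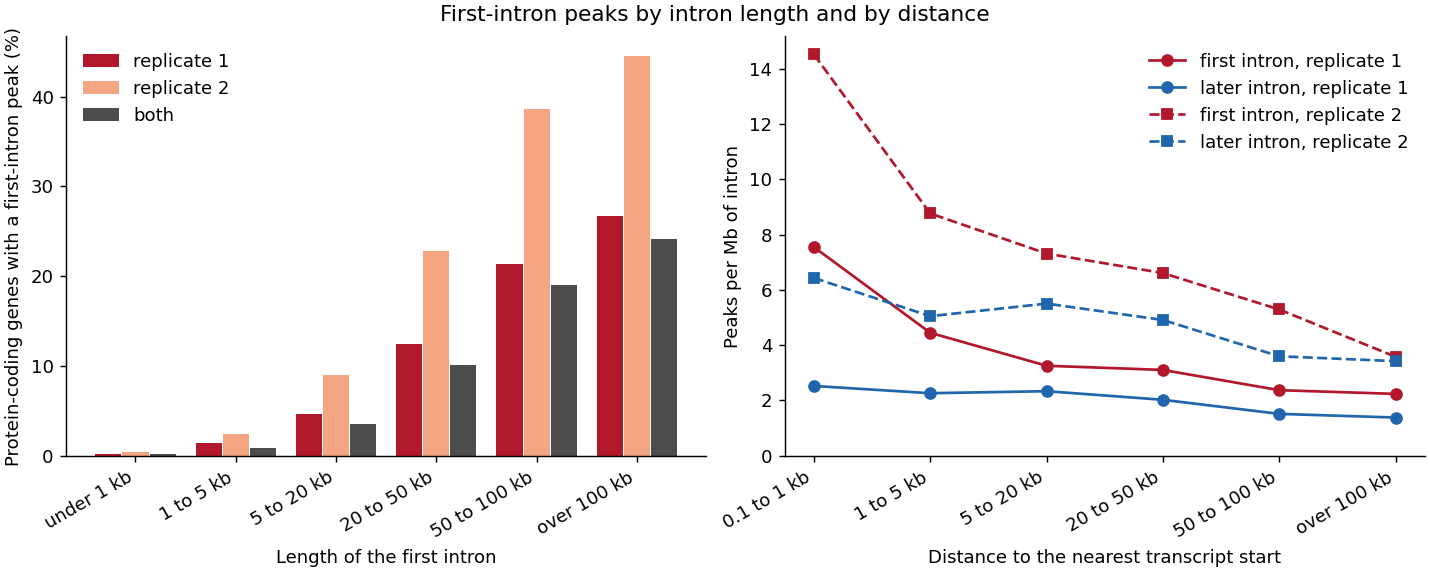
Left, share of GENCODE protein-coding genes with a first-intron peak in replicate 1, replicate 2 and both, against the length of the canonical first intron. Right, peaks per Mb of first intron (red) and later intron (blue) against the distance to the nearest transcript start, in replicate 1 (solid) and 2 (dashed). The share in both replicates goes from 0.150% under 1 kb to 24.2% over 100 kb, and first introns lie above later introns in each distance class of the same replicate.

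By nearest TSS, 959 genes had a first-intron peak in both replicates, and by host transcript 930. Among the 20052 protein-coding genes of RefSeq, 826 (4.12%) hosted a first-intron peak in both replicates. That share was higher for genes with a longer first intron, as described above, so the median first-intron length is given beside each count below, and its part in the counts was not tested.

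Among 22 genes of the UPR and endoplasmic reticulum stress, 2 (9.09%) hosted a first-intron peak in both replicates, with a median first intron of 3577 bp over the list. Beside HERPUD1 this was PPP1R15A, which directs protein phosphatase 1 to the initiation factor eIF2α. Its peak scored 16.4 (rank 465) and 29.3 (rank 571), at 683 bp and 721 bp from the start site, and TGACTCA lay within 100 bp of the centre in both replicates, outside the 121 bases printed. Of 10 target and stemness genes named by the study, which used these samples, 0 hosted a first-intron peak in both replicates. In at least 1 of the lists 2 of the 10 did. The median first intron was 7950 bp over the 9 that have one. Peaks elsewhere in these genes were not counted here, and 10 genes are too few to be set against the 4.12% of all protein-coding genes.

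Among insulin and PI3K signalling genes, IRS1, the adaptor of the insulin receptor, had its peak 42428 bp and 42419 bp from the start site, with a forkhead heptamer, at scores of 8.49 (rank 2809) and 21.6 (rank 1270). IRS2, its paralog, had first-intron peaks in both lists at positions that did not overlap. The IRS1 sequence is shown as a remote site of moderate score with the heptamer in capitals.
IRS1 (chr2:226756302-226756422): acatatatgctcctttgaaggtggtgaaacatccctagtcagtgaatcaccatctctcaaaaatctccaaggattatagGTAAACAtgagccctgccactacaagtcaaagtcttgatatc

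Of 23 forkhead genes, 4 (17.4%) hosted a first-intron peak in both, with a median first intron of 11141 bp over the 19 genes that have one. FOXK2 itself was among them, with a peak near the bottom of the first list, at a score of 3.77 (rank 11801 of 12471) in replicate 1 and 8.77 (rank 9936 of 27281) in replicate 2. FOXK1, its closest paralog, scored 8.49 and 8.48, with peaks that shared only their edges. FOXJ3 scored 10.2 and 13.4 at 485 bp and 520 bp from the start site. FOXP2 scored 4.34 and 6.39. None of these 4 peaks held TGTTTAC within 100 bp of the centre in either replicate.

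Of 15 AP-1 and small MAF genes, 2 (13.3%) hosted a first-intron peak in both, with a median first intron of 5200 bp over the 12 that have one. Beside MAFK this was ATF3, a stress-induced factor of the same family, with scores of 7.17 and 12.2 and a forkhead heptamer in both replicates. Of 22 YAP, TEAD and Hippo pathway genes, 3 (13.6%) did, each with an exact heptamer, and the median first intron was 4224 bp. AMOTL1, a junction protein that binds YAP, scored 11.9 and 18 with TGTTTAC, and NF2, the merlin tumour suppressor, 6.04 and 11.5 with TGTTTAC. PTPN14, a phosphatase that binds YAP, scored 7.17 and 15.9 with TGACTCA.

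Of 24 adhesion and matrix genes, 4 (16.7%) hosted a first-intron peak in both, with a median first intron of 16938 bp, and these 4 were integrin subunits. ITGB5 scored 11.3 and 18.6 with both heptamers, ITGB1 6.41 and 11.7 with TGTTTAC, and ITGA6 9.43 and 18.9 with 2 AP-1 sites. ITGA3 scored 9.62 and 16.1 with neither. Of 12 enhancer-binding factors, 2 (16.7%) did, RUNX1 and SMAD3, with a median first intron of 4622 bp. Of 14 genes of FOXK2 partner complexes 1 (7.14%) did, YY1, with scores of 5.85 and 10.3 and neither heptamer, and the median first intron was 8977 bp. Of 22 autophagy genes 1 (4.55%) did, RB1CC1, a subunit of the ULK1 kinase complex, with scores of 8.68 and 17 and a forkhead heptamer, and the median first intron was 5595 bp. The last share is near the 4.12% of all protein-coding genes. The shares of the other gene lists also rest on few genes each, and none was tested against that of all genes.

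Most hosts had a single shared site. Among the host genes of the 979 pairs, 731 held 1, 87 held 2, 16 held 3, 5 held 4 and 1 held 5. The gene with 5 was PITPNC1, a phosphatidylinositol transfer protein, with sites spread over 99391 bp of chromosome 17 and best scores of 14.5 (rank 651) and 27.1 (rank 716). SMAD3, the signal transducer of TGF-β receptors, held 4 over 53463 bp of chromosome 15, of which 1 had TGTTTAC and 1 TGACTCA in both replicates. CMIP, EXT1, PLCB4 and SEPTIN9 also held 4. At SEPTIN9, a cytoskeletal GTPase, none of the 4 had the same heptamer in both replicates. ACTN4, an actin crosslinker, and AFF1, a subunit of the super elongation complex, were among the genes with 3. EGFR, the epidermal growth factor receptor, named after its values were seen, also held 3, with best scores of 14.5 (rank 651) and 35.5 (rank 355).

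The most remote shared peak was at ASIC2, an acid-sensing ion channel, 284972 bp from the nearest TSS in replicate 1. It scored 11.9 and 23.1 and held TGTTTAC and 2 AP-1 sites in both replicates. KCND2, a potassium channel, followed at 274022 bp with scores of 8.87 and 17.4 and TGTTTAC, then ZNF804B at 247473 bp with 4.53 and 8.77 and TGACTCA. EFNA5, an ephrin ligand, had shared peaks at 215677 bp and 201176 bp with neither heptamer. Their percentiles in replicate 1 ran from 21.9 at ZNF804B to 90.6 at ASIC2.

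Some first-intron peaks of high score were called in a single list. In replicate 2, the peak at COLEC10, a collectin, scored 31.1 (rank 501) and that at SPIDR, a DNA repair scaffold, 28 (rank 651), both with TGTTTAC. The nearest peaks of replicate 1 were centred 47636 bp and 146300 bp away. ITGB8, KCTD1 and PVT1 followed with scores from 20.8 to 22.8 and neither heptamer. In replicate 1 the highest were CUEDC1 (11.9, rank 1147), MB21D2 (10.6, rank 1588), SULF1 (9.81, rank 1915), PLD1 and CHD7 (each 9.62, rank 2021), and each of these 5 held TGTTTAC. At CUEDC1 a peak of replicate 2 was centred 367 bp away, beyond the length of a peak. COLEC10, SPIDR and PVT1 in replicate 2 and SULF1 and CHD7 in replicate 1 lie on chromosome 8, and the cause was not tested.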

How the data were processed

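The peak lists of 2 FOXK2 ChIP-seq libraries of OVCAR5 cells were used. According to the submitters' processing notes, reads were mapped to hg38 with Bowtie2 2.2.6 and peaks were called with HOMER 4.10. The peak score deposited by the authors is a scaled tag count, which occurred in steps of 0.189 in replicate 1 and 0.149 in replicate 2, and the focus ratio deposited by the authors is the fraction of tags on the expected side of the centre (median 0.766 and 0.763 here). Reads, inputs and the expression part of the series were not used here, and the total depth of each library is not given in the sources used here. Peaks were 210 bp and 256 bp long in the 2 lists and are called separately. Labels give biological duplicates, and Fisher's exact tests compare peaks within a list, so p-values measure counting error over peaks and not variation between cultures.

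Classes were taken from the deposited annotation. Peaks were shared at an overlap of 1 bp or more. Both strands of the 100 bp on each side of the centre were scanned for motifs, beside control windows 2000 bp away. Shares have Wilson 95% intervals. P-values were adjusted by Benjamini-Hochberg within families. Introns came from GENCODE release 44 and host genes from RefSeq. The class, the gene lists and the motifs were chosen with earlier results of these data known. The count over the insulin and PI3K signalling list is not reported here. The heptamer count, the distance, intron length, orientation and 1-base variant analyses were added after the peaks had been examined. Named genes were the 12 best shared sites, 8 genes with most shared sites, members of the gene lists, the 5 best sites without either heptamer and with AP-1 only, the 5 most remote sites and the 5 best unshared peaks of each list. Of the 16 genes tied at 3 shared sites, ACTN4 and AFF1 were taken as the first by name. The heptamer comparison was run on simulated data for replicate 1 with 1000 features, where 99% of changed features were called. The share that would be called over the 8179 heptamers of the real count was not tested. The motif and overlap steps gave 0 errors. Tests ran in scipy 1.17.1 and statsmodels 0.14.6 under Python 3.11.15, tables in pandas 2.3.3 with numpy 2.4.6, sequences in pysam 0.24.0 and plots in matplotlib 3.10.9.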

Additional observations from a re-analysis of the deposited data

How the results depend on the processing

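Of 69 alternative settings, 41 kept the direction and the side of the 0.05 threshold (unadjusted Fisher's exact p) or stayed within their error, among them every alternative of the AP-1 difference between first and later introns. The results below moved with the setting, and the cause was not tested. Differences to promoters and intergenic peaks, the joint occurrence of heptamers and the 1-base variants were not rerun under alternatives. In replicate 1, where the differences in recovery, share in the best 10% and TGTTTAC did not pass, the sign reversed for recovery against intron 2 only (-0.55 points) and with an overlap of 0.5 of the shorter peak (-0.323), for TGTTTAC against intron 2 only (-0.49), and for the best 10% (-0.402 points) with repeats and CpG islands included (0.363), against intron 2 (0.758), in the best 5% (0.749) and in the best 25% (1.93). TGTTTAC passed in the higher-scoring part of replicate 1 (5 points). In replicate 2 the recovery difference of 3.06 points was lost at 5000 bp or more from the TSS (1.95), against intron 2 (2.42), in the higher-scoring part (0.323) and in lists of equal length (1.01). The difference in the best 10% of 1.75 points was lost at that distance (1.01), against intron 2 (1.64) and in the best 5% (0.707). The TGTTTAC difference of 2.33 points (Fisher's exact unadjusted p = 0.0303) was lost at that distance (1.95), with repeats and CpG islands included (1.6), against intron 2 (1.77), in the higher-scoring part (1.16), in windows of 50 bp (1.88) and 250 bp (2.16), and with TGTTGAC added (2.16). Control windows 10000 bp away moved the TGTTTAC ratio of replicate 1 from 14.3 to 10.4 and the AP-1 ratio of replicate 2 from 5.53 to 6.36. The density ratio moved to 1.48 and 1.36 at 5000 bp or more from any transcript start. The 959 genes in both replicates became 534 in the higher-scoring part of each list and 2206 without replicate 1. Without replicate 2 the count was 1179, a setting included in the 41 although no error is given here for gene counts. Density over unmasked bases alone was not run, since the genome used here marks no repeats.

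No paired analysis was possible because no 2 groups were compared, inputs being without a peak list here. Recovery depends on score and list length: in the lowest 10% of the list, 43.1% of first-intron peaks of replicate 1 and 1.71% of replicate 2 were recovered, with 12471 and 27281 peaks in the lists.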
